A study of Mus musculus with 14 samples.

Results

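LSD1 regions of wild-type mouse liver were set against the H3K4me2 regions of the same livers. The members were all 1500 LSD1 regions on chromosomes 1 to 19, X and Y, obtained by merging 1718 overlapping or touching listed entries. They were split by whether they had at least 1 bp in common with any of the 54219 H3K4me2 regions. On this rule 1085 LSD1 regions lay on H3K4me2 and 415 lay off it, and 1226 H3K4me2 regions carried LSD1. The same series also lists 2949 merged LSD1 regions from livers with a YAP transgene and 5905 wild-type H3K4me1 regions, which enter here only as a second readout of the wild-type LSD1 regions.

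The wild-type mice were C57BL/6, and their livers gave 2 libraries with an LSD1 antibody, 2 with an H3K4me2 antibody, 2 with an H3K4me1 antibody and 1 input library, out of 14 libraries in the series. The labels list doxycycline at 50 mg/L in the drinking water for 10 days on every sample, to induce YAP in the transgenic mice, and do not say whether the wild-type mice drank it; sex and age are not given. Chromatin was cut with micrococcal nuclease before immunoprecipitation. Each antibody has 1 deposited list of enriched regions that stands for both replicates, so replicate error cannot be estimated, p-values are not given, and the read depth is unknown. All intervals are 95% intervals that treat regions or genes as independent and cover counting error only.

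LSD1, encoded by Kdm1a, is a flavin-dependent demethylase that removes methyl groups from mono- and dimethylated lysine 4 of histone H3. It works in complexes with the corepressor RCOR1 and the deacetylases HDAC1 and HDAC2, and H3K4me2 is one of its substrates. H3K4me2 marks active and poised promoters, where it typically flanks a nucleosome-depleted start site, and also marks enhancers. The liver is mostly hepatocytes by mass, with bile duct, endothelial, macrophage, stellate and lymphoid cells beside them. Of 8 hepatocyte marker genes, 7 had H3K4me2 within 1 kb of an annotated boundary, and Hnf4a was the exception. The same held for 2 of 5 biliary, 1 of 5 endothelial, 2 of 5 macrophage, 1 of 5 stellate and 1 of 4 lymphocyte markers, and for 57.4% of all protein-coding genes. None of these marker genes had LSD1 at a boundary, where 3.07% of all protein-coding genes did. At that share, none among so few markers is no result about them. In whole liver, fewer cells with a mark and less of it per cell cannot be told apart.

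Promoters under LSD1 are shown for cases at an edge of H3K4me2, across a gap and off it; none with LSD1 wholly inside is among them. The following are the 250 bases before the RefSeq start site (GRCm38.p6, which has mm10 coordinates), each on the strand of its gene. They were taken from the 6 highest-ranked promoters under LSD1 on H3K4me2 and the 2 highest-ranked off it, and shown are the 5 with at least 200 of these bases under LSD1. Capitals mark matches on either strand to a set of 15 short motifs, and a match is not evidence of binding. Psmc4 lies on the minus strand, chr7:28050093-28050342, with LSD1 over all 250 bases and H3K4me2 over none. Snx11 (minus strand, chr11:96777556-96777805) has LSD1 over all 250 bases and H3K4me2 over none, and its LSD1 region reaches an H3K4me2 region on each side. Gpatch3 (plus strand, chr4:133574495-133574744) has 223 bases under LSD1 and 189 under H3K4me2. Tent2 (minus strand, chr13:93192418-93192667) has 250 and 168. Ctnnb1 (plus strand, chr9:120933150-120933399) has all 250 bases under LSD1 and is a case off H3K4me2, which was 382 bp away from the LSD1 region.
Psmc4: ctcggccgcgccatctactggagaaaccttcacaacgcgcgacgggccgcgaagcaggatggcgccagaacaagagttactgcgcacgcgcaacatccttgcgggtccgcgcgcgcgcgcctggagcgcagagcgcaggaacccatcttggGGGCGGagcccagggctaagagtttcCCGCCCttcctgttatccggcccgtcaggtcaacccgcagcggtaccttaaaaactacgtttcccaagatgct
Snx11: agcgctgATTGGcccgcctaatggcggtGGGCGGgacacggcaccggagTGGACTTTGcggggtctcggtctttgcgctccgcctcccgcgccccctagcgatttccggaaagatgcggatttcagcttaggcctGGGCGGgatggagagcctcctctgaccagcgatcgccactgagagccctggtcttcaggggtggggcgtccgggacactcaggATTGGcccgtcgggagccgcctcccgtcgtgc
Gpatch3: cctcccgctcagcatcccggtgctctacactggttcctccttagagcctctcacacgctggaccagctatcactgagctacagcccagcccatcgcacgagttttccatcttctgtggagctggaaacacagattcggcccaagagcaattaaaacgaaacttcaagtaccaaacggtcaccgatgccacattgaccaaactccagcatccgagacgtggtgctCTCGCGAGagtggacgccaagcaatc
Tent2: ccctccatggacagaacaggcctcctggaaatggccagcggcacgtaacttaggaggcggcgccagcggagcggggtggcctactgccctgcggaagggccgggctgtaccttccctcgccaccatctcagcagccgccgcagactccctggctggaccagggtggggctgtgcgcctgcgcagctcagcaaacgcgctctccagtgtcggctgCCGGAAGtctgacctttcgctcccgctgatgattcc
Ctnnb1: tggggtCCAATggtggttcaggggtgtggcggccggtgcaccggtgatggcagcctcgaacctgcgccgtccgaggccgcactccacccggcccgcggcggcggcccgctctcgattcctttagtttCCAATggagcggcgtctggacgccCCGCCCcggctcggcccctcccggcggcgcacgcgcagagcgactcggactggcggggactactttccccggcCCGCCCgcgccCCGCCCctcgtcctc
The capitals are GC boxes (GGGCGG) in Psmc4, and CCAAT boxes, GC boxes and 1 HNF4 match (CAAAGTCCA) in Snx11. Gpatch3 has the palindrome CTCGCGAG, Tent2 an ETS match (CCGGAAG), and Ctnnb1 CCAAT and GC boxes. The 5 promoters have a GC content of 54.8% (Gpatch3) to 74.8% (Ctnnb1) and between 14 and 35 CpG dinucleotides.

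The first comparison asks how far the demethylase and its substrate mark share territory in normal liver. LSD1 overlapped H3K4me2 in 72.3% of its regions (70.0% to 74.5%), while H3K4me2 covered 1.93% of the chromosome span. Most overlaps covered a large part of the LSD1 region: 83.3% of the overlapping LSD1 regions were covered over at least 50% of their length, the median coverage was 79.3%, and 34.7% were covered completely. Counted by LSD1 centres, there were 16.7 per Mb inside H3K4me2 and 0.237 per Mb outside, a ratio of 70.5. On the 19 chromosomes with at least 40 LSD1 regions, the share on H3K4me2 ran from 62.7% on chromosome 12 to 82.1% on chromosome 7. In the other direction, LSD1 was found on 2.26% of H3K4me2 regions (2.14% to 2.39%), which held 3.52% of H3K4me2 bases. The LSD1 list was much shorter, with 1500 regions against 54219, so this share would be low even if all LSD1 lay on H3K4me2. That share was 1.20% with the higher-scoring 50% of LSD1 regions, 3.77% among the higher 50% of H3K4me2 regions by signal, 3.87% when LSD1 within 1 kb counted, and 4.30% with H3K4me2 regions joined across gaps of up to 1 kb.

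LSD1 regions on H3K4me2 had a somewhat higher deposited score than those off it. The median score was 743 (727 to 758) on and 698 (680 to 718) off, a difference of 45 (19.4 to 68.4). Among the higher-scoring 50% of LSD1 regions, which are chosen by the same score, the difference was -17 (-61.7 to 17.4). The median deposited signal was 34.1 on and 33.8 off. In 4 equal parts by score, from low to high, the share on H3K4me2 was 68.5%, 68.3%, 77.6% and 74.9%. The interval of the median signal on H3K4me2 (33.5 to 34.6) overlapped that off it (33.1 to 34.3).

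H3K4me2 regions carrying LSD1 were wider than those without. Their median width was 1155 bp (1074 to 1245), against 564 bp (558 to 570), a ratio of 2.05. Their median deposited signal was 6.76 against 4.16. Among the higher 50% of H3K4me2 regions by signal the width ratio was 1.18. The share with LSD1 was 1.40% among regions up to 300 bp, 1.19% at 301 to 600 bp, 2.14% at 601 to 1000 bp, 3.40% at 1001 to 2000 bp, 4.49% at 2001 to 4000 bp and 6.30% above 4000 bp. Within the highest of 4 equal parts by H3K4me2 signal the share did not rise steadily: from the narrowest class to the widest it was 10.8% (12 of 111 regions), 3.804%, 4.55%, 4.42%, 4.89% and 6.61%. A wide region also has more bases that LSD1 can overlap. Per Mb of H3K4me2 the order turned: there were 34.1 LSD1 centres in the narrowest class, and 16.9, 20.1, 17.0, 13.3 and 11.9 in the wider ones. In 4 equal parts by H3K4me2 signal, from low to high, the share with LSD1 was 0.481%, 1.07%, 2.83% and 4.76%, and centres per Mb were 6.84, 11.9, 20.3 and 18.1. LSD1 was thus denser in the upper 2 parts by signal than in the lower 2. The fall of density with width held at gene ends, from 37.7 centres per Mb in the narrowest class to 10.5 in the widest. Between genes the density was 53.8 up to 300 bp, 23.2 at 301 to 600 bp, 34.2 at 2001 to 4000 bp and 41.0 above 4000 bp (30 regions).

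**Figure D1:**
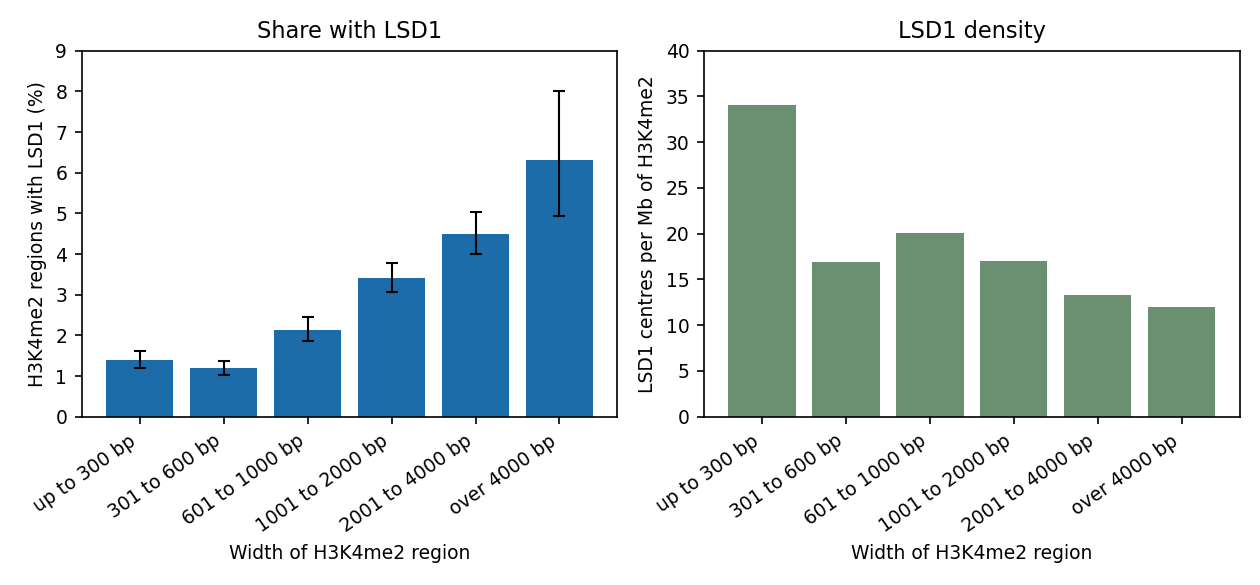
Share of wild-type H3K4me2 regions with LSD1 (left, percent, with 95% Wilson intervals) and number of LSD1 centres per Mb of H3K4me2 (right), by width of the H3K4me2 region. The share is highest, 6.30%, in the widest class, whereas the density is highest, 34.1 per Mb, in the narrowest.

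The widest H3K4me2 regions with LSD1 lay at genes of varied roles. They were at Mtss1, an actin and membrane binding protein (9281 bp), Itm2b (8570 bp), Fn1, which encodes the plasma protein fibronectin (8365 bp), Alcam, an adhesion molecule (8125 bp), and Tbx3, a T-box transcription factor (7784 bp). Each held 1 LSD1 region. Regions without LSD1 reached greater widths, among them a region nearest to Frmd8 (11241 bp) and those at Gata6, a GATA transcription factor (11167 bp), and Acsl1, a fatty acid activating enzyme (10009 bp). Of the widest 100 regions, 9 had LSD1. Most H3K4me2 regions with LSD1 held a single LSD1 region (1212), 12 held 2 and 2 held 3. The pair with 3 lay on chromosome 13, and the nearest protein-coding genes were Abt1 (10600 bp away) and Trim27 (9045 bp away). Both of these regions had LSD1 over tRNA genes. The named genes with 2 were Ulk2, an autophagy kinase, Ece1, an endothelin-converting enzyme, and Hjurp.

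LSD1 took several positions within H3K4me2. Of the 1085 overlapping LSD1 regions, 376 (34.7%) lay wholly inside 1 H3K4me2 region, of a median width of 2262 bp. A further 462 (42.6%) crossed 1 edge, 91 (8.39%) reached past both edges of a narrow region (median 235 bp), and 156 (14.4%) bridged 2 or more H3K4me2 regions. Among the 872 LSD1 centres inside H3K4me2 the median distance to the nearest edge was 174 bp. To allow for width, each centre was compared with even placement along its own H3K4me2 region, a background added after the data were seen. Of the centres, 54.5% (51.2% to 57.8%) lay within 200 bp of an edge, against 42.8% under even placement. The excess was largest in regions of intermediate width and small up to 1000 bp. For H3K4me2 of 1001 to 2000 bp the shares were 53.5% (47.2% to 59.6%) and 28.4%, and for 2001 to 4000 bp they were 26.8% (21.3% to 33.1%) and 15.1%. Up to 1000 bp they were 80.2% (75.8% to 84.0%) and 75.4%. Above 4000 bp 3 of 60 centres lay that near an edge (5.0%, 1.71% to 13.7%), against 7.87% under even placement.

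**Figure D2:**
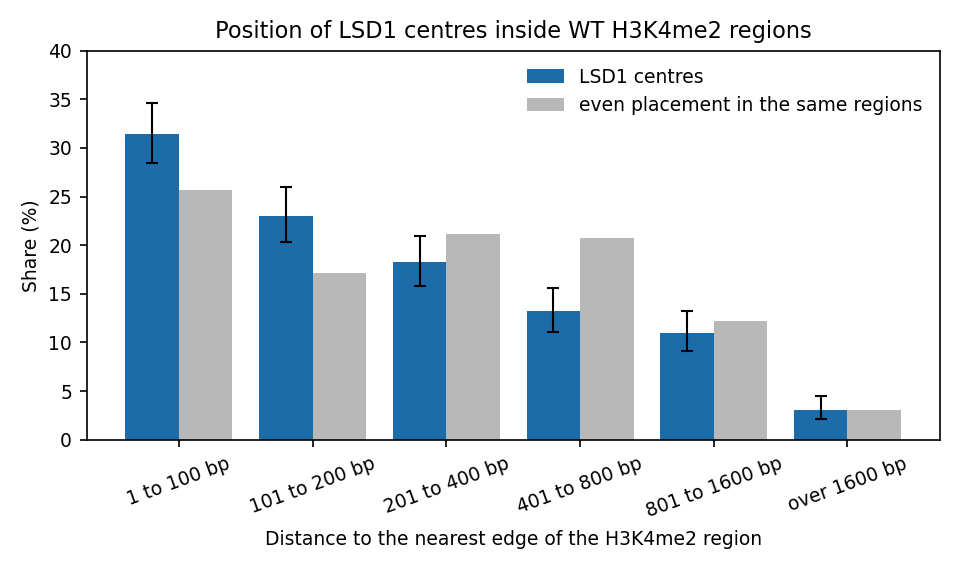
Share (percent) of the 872 LSD1 centres inside H3K4me2, with 95% Wilson intervals, and the share that even placement of each centre along its own H3K4me2 region gives, by distance in bp to the nearest region edge. Centres exceed even placement within 200 bp of an edge and fall below it at 401 to 800 bp (13.2% against 20.7%).

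Nearness to edges was similar across gene positions, whereas its excess over even placement differed. Within 200 bp of an edge lay 53.6% of centres at gene ends (48.9% to 58.1%), against 34.2% under even placement. The shares were 55.1% (48.8% to 61.2%) and 48.2% inside genes, and 55.9% (48.6% to 63.0%) and 57.1% between genes, so between genes the interval covered even placement. H3K4me2 regions also differed in median width, with 1136 bp at gene ends, 445 bp inside genes and 391 bp between genes. Width and gene position were not told apart here. The deposited summit of the mark was within 200 bp of 48.7% of centres (45.4% to 52.1%), against 40.8% under even placement. What counts as an edge depended on short gaps between H3K4me2 regions. With H3K4me2 regions joined across gaps of up to 1 kb, the share of LSD1 wholly inside rose from 34.7% to 77.3%, so many of the edges lay toward a neighbouring H3K4me2 region rather than toward unmarked DNA.

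Gaps in H3K4me2 of up to 600 bp held LSD1 at a density similar to or above that of H3K4me2 itself. The bridging LSD1 regions spanned 157 gaps with a median length of 140 bp (128 to 164) and a range of 76 to 493 bp. In 75 of the 156 bridging regions (48.1%) the LSD1 centre fell in the gap. There were 22.1 LSD1 centres per Mb in gaps up to 200 bp, 26.0 in gaps of 201 to 400 bp and 16.3 in gaps of 401 to 600 bp, against 16.7 inside H3K4me2. The density dropped to 5.64 in gaps of 601 to 1000 bp, 3.15 in gaps of 1001 to 2000 bp and 0.168 in gaps above 10000 bp. Micrococcal nuclease cuts linker DNA, so gaps can follow both mark and cutting, and the part of cutting was not tested.

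**Figure D3:**
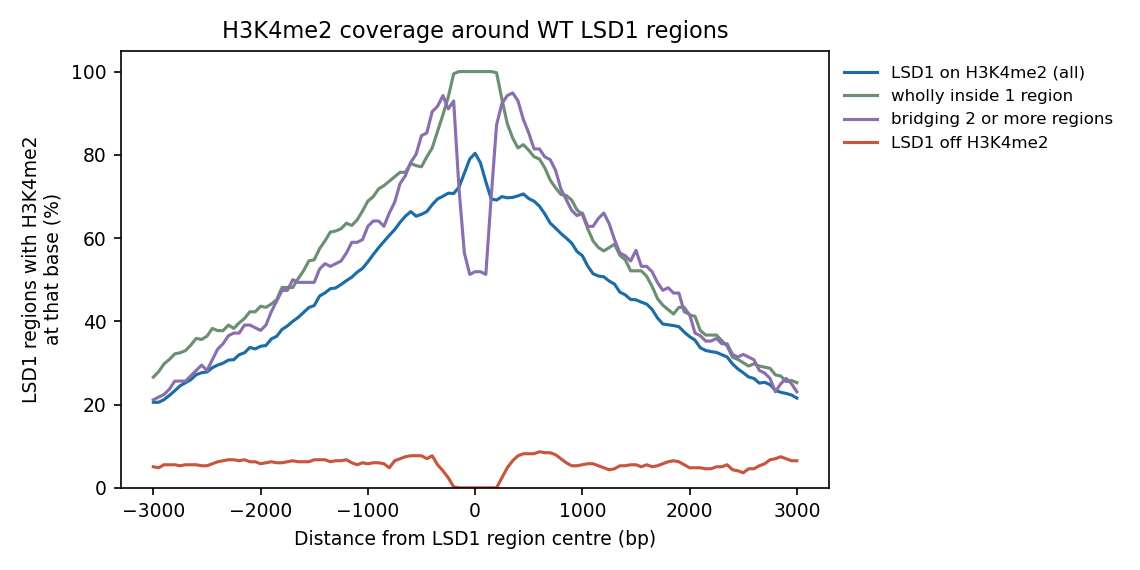
Share (percent) of LSD1 regions with H3K4me2 at each distance in bp from the LSD1 centre, for all LSD1 regions on H3K4me2, those wholly inside 1 region, those bridging regions, and those off H3K4me2. Coverage peaks at 80.4% at the centre for all on regions, and dips to 51.3% near the centre of the bridging ones, where it reaches 94.9% at 350 bp. The groups were set by this same overlap, so the peak and the dip follow largely from their definition.

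LSD1 regions off H3K4me2 ranged from its immediate neighbourhood to far from it. Their median distance to H3K4me2 was 7698 bp (5773 to 10538). Of the 415, 62 (14.9%) were within 200 bp of H3K4me2, although only 0.637% of unmarked bases were, and 98 (23.6%) were within 1 kb, against 2.13% of unmarked bases. At the other extreme 57 (13.7%) were more than 50 kb away. The 6 strongest by score and then signal are named here as an addition to the naming rule, chosen after their values were seen. The first lay 221 bp from H3K4me2 with Mrto4 as the nearest gene (chr4:139334488-139334883, signal 72.8). It was followed by regions within Ank2, which encodes an ankyrin (68.5, 14025 bp from H3K4me2), within Cndp1 (67.2, 26059 bp), near Hjurp (63.3, 1414 bp), near Stmnd1 (61.2, 194593 bp) and at Gpcpd1 (61.1, 303 bp). All 6 were also in the LSD1 list of YAP livers. High signal thus occurred both beside H3K4me2 and far from it.

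LSD1 on H3K4me2 was at genes' ends much more often than LSD1 off it. A gene end here is a window reaching 1 kb to either side of an annotated boundary, for protein-coding genes. Gene ends held 50.4% of the LSD1 regions on H3K4me2 (47.4% to 53.4%) and 6.99% of those off it (4.91% to 9.86%), a difference of 43.4 percentage points (39.3 to 47.1). Inside genes away from their ends lay 28.8% and 39.0%, and between genes 20.8% and 54.0%. H3K4me2 is itself common at gene ends, which held 56.4% of the H3K4me2 regions with LSD1 and 37.8% of those without. Per Mb of H3K4me2, LSD1 centres numbered 16.6 at gene ends, 12.5 inside genes and 29.6 between genes, so the gene-end regions did not have the densest LSD1. The arrangement differed too: LSD1 bridged 2 or more H3K4me2 regions in 17.6% of cases at gene ends (14.6% to 21.0%) and in 8.85% between genes (5.80% to 13.3%).

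LSD1 on H3K4me2 lay at an end of 642 of 21887 protein-coding genes (2.93%). H3K4me2 lay at an end of 12571 genes (57.4%), and 5.11% of these had LSD1 on it. LSD1 off H3K4me2 lay at an end of 22 further genes with H3K4me2 elsewhere at an end, and of 7 genes without. Both were absent from the ends of 9309 genes. The 642 genes were reached by 547 LSD1 regions, of which 102 lay at 2 genes and 1 at 3. At 230 of the 642 genes LSD1 was wholly inside H3K4me2, at 276 it crossed 1 edge, at 119 it bridged regions and at 17 it reached past both edges. With the higher-scoring 50% of LSD1 regions, 344 genes had both.

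Where the direction of the gene was known, LSD1 lay at the start rather than the finish of 491 of 523 genes (93.9%). These genes were chosen for LSD1 on H3K4me2, and the like share for H3K4me2 itself was not computed. The 93.9% is thus no result about LSD1 apart from the mark. Start sites were given by RefSeq for 17492 protein-coding genes (79.9%). The 477 LSD1 regions on H3K4me2 within 1 kb of a start site had a median offset of -29 bp, the negative sign meaning upstream, with quartiles at -207 and 146 bp. Of these, 129 (27.0%) were centred within 100 bp and 261 (54.7%) within 200 bp of the start. H3K4me2 itself dipped there. At 50 bp upstream of the start, 39.4% of start sites with LSD1 and 39.1% of those with H3K4me2 but no LSD1 were covered by the mark. Coverage then rose to maxima of 94.9% at 650 bp and 85.3% at 600 bp downstream, respectively. The lowest coverage was alike in both sets, and the maximum was higher with LSD1. The set with LSD1 was chosen by its overlap with these same H3K4me2 regions, and H3K4me2 regions with LSD1 were wider. The higher maximum is therefore a description, and the part of this choice and of width in it was not tested. Start sites with LSD1 faced a divergent neighbouring start in 20.5% of cases, against 15.3% of those with H3K4me2 only, a difference of 5.25 points (1.94 to 8.98). Divergent starts can share 1 LSD1 region and are then counted separately, so the interval is too narrow. The part of such sharing in the difference was not tested.

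**Figure D4:**
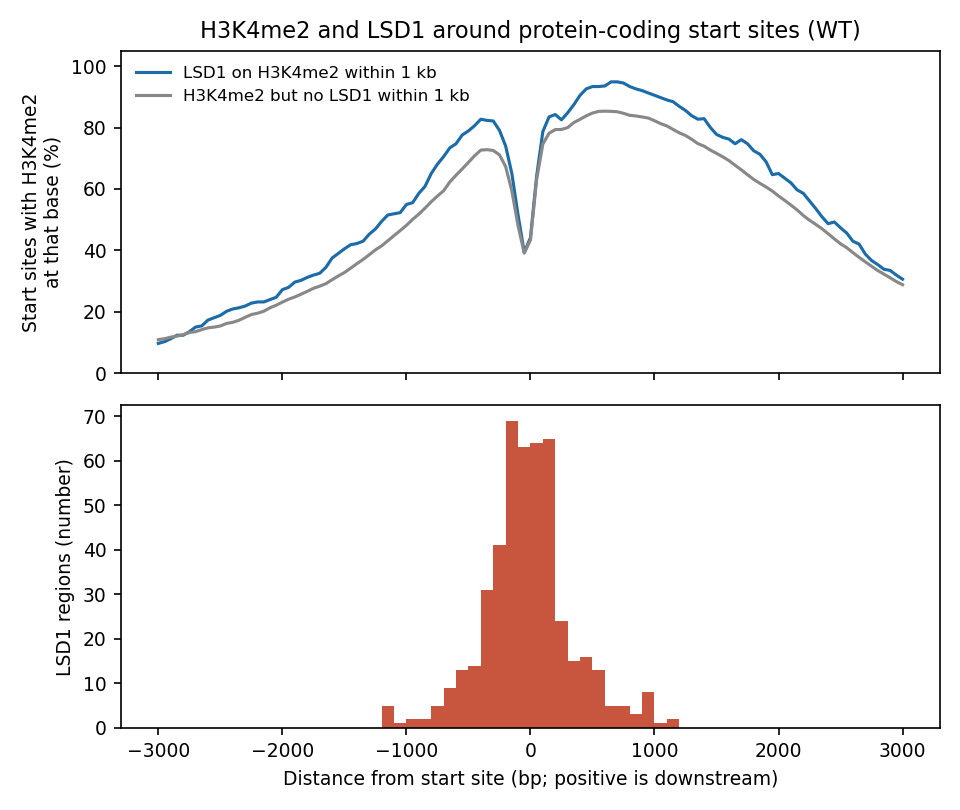
Top: share (percent) of protein-coding start sites with H3K4me2 at each distance in bp from the start, for start sites with LSD1 on H3K4me2 within 1 kb and for those with H3K4me2 and no LSD1; both dip to about 39% just upstream of the start. The set with LSD1 was chosen by overlap with the same H3K4me2 regions. Bottom: number of LSD1 regions by distance of their centre from the start site, with a median of -29 bp.

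The genes with the highest LSD1 score and signal on H3K4me2, all at a score of 1000, included housekeeping and liver genes, and 11 of these 12 had LSD1 at the start. Ccdc90b, a mitochondrial coiled-coil protein, had the highest LSD1 signal, 73.8 (chr7:92561098-92561493), over an H3K4me2 region of 192 bp that LSD1 exceeded on both sides. Psmc4, an ATPase subunit of the proteasome cap, followed with 68.1 (chr7:28050035-28050430) at the edge of an 844 bp H3K4me2 region. Snx11, a sorting nexin, had 64.5 (chr11:96777489-96777884), with LSD1 spanning a gap in H3K4me2. Shmt1, the cytosolic serine hydroxymethyltransferase of one-carbon metabolism, had 63.4 and was the only one of the 12 with LSD1 wholly inside H3K4me2.

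The others crossed an edge or bridged regions. Gpatch3, a G-patch domain protein, had an LSD1 signal of 61.3, Czib 59.5 and Tent2, a cytoplasmic poly(A) polymerase, 59.4. Zbtb26 and Zbtb6, neighbouring zinc finger genes, shared 1 LSD1 region with a signal of 59.4, at the start of Zbtb6 and the finish of Zbtb26. Slc25a47, a liver mitochondrial carrier, and Mia3, a protein of collagen export from the endoplasmic reticulum, both had 56.9. Hjurp, the chaperone of the centromeric histone CENP-A, had 55.9. These 12 genes were chosen by LSD1 score and signal, so their high values are a description of the list's upper end.

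The strongest LSD1 at gene ends off H3K4me2 was in most cases close to the mark. Gpcpd1, a glycerophosphocholine phosphodiesterase, had a signal of 61.1 at 303 bp from H3K4me2. Ube2o, a ubiquitin-conjugating enzyme, had 55.6 at 207 bp. Ctnnb1, which encodes β-catenin, the mediator of canonical WNT signalling, had 54.8 at 382 bp. Tnfaip2 had 52.6 at 633 bp and Polr2e, a shared subunit of the RNA polymerases, had 39.6 at 77 bp. Churc1, with 40.4 at its finish, was the distant one of these 6, at 16091 bp. Of all 29 LSD1 regions at gene ends off H3K4me2, 14 were within 1 kb of it.

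A set of 9 genes around LSD1, YAP and the liver was looked up for reference. Kdm1a, which encodes LSD1, had 2.57 kb of H3K4me2 within the gene and 5 kb on both sides. Its partners Rcor1 (4.59 kb), Hdac1 (3.78 kb) and Hdac2 (3.56 kb) were also marked. Yap1 had 4.06 kb, Odc1, the first enzyme of polyamine synthesis, 2.95 kb, and the YAP targets Ccn1 and Ccn2 had 5.46 kb and 0.529 kb. Alb, the albumin gene, had 6.45 kb. No LSD1 region lay within that window of any of these 9 genes; at 2.93% of all genes with LSD1 on H3K4me2 at an end, none among 9 is no result about them.

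Across 24 gene lists with 596 genes in all, 519 had H3K4me2 at an end. LSD1 on H3K4me2 lay at an end of 4.70% of all list genes, against 2.93% of all protein-coding genes. That was 28 of the 519 list genes with H3K4me2, where the share over all protein-coding genes with H3K4me2 was 5.11%. With the higher-scoring 50% of LSD1 regions the number was 13. In the proteasome and ubiquitin list, 4 of 35 genes had both: Psmc4, Fbxw7, a substrate receptor of a ubiquitin ligase (LSD1 signal 41.2, bridging H3K4me2 regions), Psmb5, a catalytic subunit (30.3), and Psma3 (19.03). In the respiratory chain list it was 4 of 38, namely Cycs, which encodes cytochrome c (54.7), Ndufs1 of complex I (40.3), Sdhb of complex II (38.4) and Cox5b of complex IV (31.7). The cell cycle list had 3 of 32, the transcription factor E2f3 (39.1), the replicative helicase subunit Mcm7 (35.8) and the mitotic kinase Aurka (35.8). The ribosomal protein list had 3 of 44 (Rpl24, Rpl3 and Rpl37) and the splicing list 2 of 34 (Srsf1 and Rbm39).

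Among 30 hepatocyte transcription factors they were Nr0b2, the corepressor SHP of bile acid feedback (39.2), and Tbx3 (43.4), whereas Nr5a2, a nuclear receptor, had LSD1 off H3K4me2 at its finish (32.7). In bile acid synthesis and transport they were Cyp7b1, an oxysterol hydroxylase (35.7), and again Nr0b2, of 22 genes. Glul, glutamine synthetase (30.9), and Cbs, cystathionine β-synthase (36.8), were 2 of 26 genes of the urea cycle and amino acid breakdown, and Clock (25.8) and Ciart (25.7) were 2 of 23 clock genes. Single genes had both in the lists of plasma proteins (Ambp, 1 of 30), sterol and fatty acid synthesis (Insig1, which retains the sterol sensor SCAP, 1 of 31), stress response (Zfp36, 1 of 30), YAP targets (Nuak2, 1 of 26) and biliary genes (Anxa5, 1 of 17). No gene had both among 25 glucose metabolism genes, 24 drug-metabolising cytochromes P450, 20 Hippo pathway genes, 23 polyamine and hypusination genes, 22 genes of LSD1 complexes and 19 other H3K4 enzymes. The lists for endothelial, macrophage, stellate and lymphocyte genes also had none, and there H3K4me2 itself was at 8 of 16, 2 of 13, 3 of 13 and 2 of 12 genes, and at 11 of 17 genes of the biliary list. These counts are small and are over all list members, including those without H3K4me2. No list is called different from the 2.93% of all protein-coding genes or the 5.11% of those with H3K4me2.

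**Figure D5:**
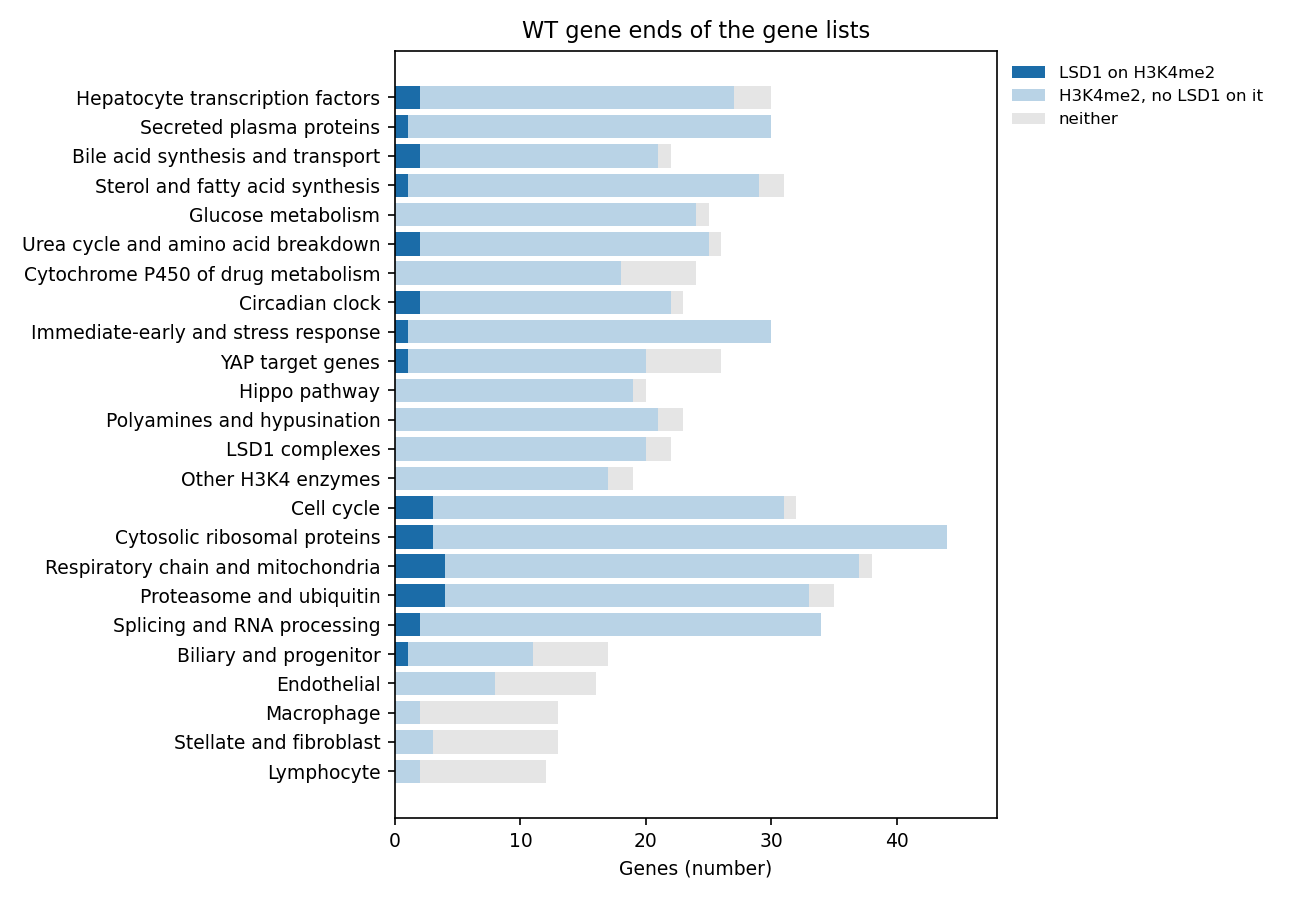
Number of genes in each of 24 lists with LSD1 on H3K4me2 at a gene end, with H3K4me2 but no LSD1 on it, and with neither. The highest number with both is 4, in the proteasome and the respiratory chain lists.

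Promoter sequence under LSD1 resembled that of other H3K4me2 promoters in composition. The window was 250 bases before to 50 after the start. Median GC content was 61.0% in 399 promoters with LSD1 on H3K4me2 over this window. It was 61.3% in 9517 with H3K4me2 and no LSD1 within 1 kb of the start, and 48.3% in 7433 with neither within 1 kb. The sets were thus chosen at unlike distances. Of 15 motifs searched on both strands, 3 differed between the first 2 sets by more than the 95% interval, which was not adjusted for 15 comparisons. The ETS motif CCGGAAG was in 22.8% against 18.4% (difference 4.38 points, 0.450 to 8.81; 11.9% of all promoters). The YY1 motif AAGATGGCG was in 5.01% against 3.11% (difference 1.90 points, 0.119 to 4.53; 1.92% of all), and the palindrome CTCGCGAG in 3.76% against 1.99% (difference 1.77 points, 0.275 to 4.14; 1.31% of all). For the GC box GGGCGG the shares were 64.2% and 66.6% (46.3% of all), and for CCAAT 38.3% and 39.2% (39.2% of all). The liver factor motifs were rare in both sets: CAAAGTCCA for HNF4 was in 0.501% and 0.410% (0.417% of all), and TGTTTAC for FOXA in 1.75% and 2.43% (2.93% of all).

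The share of LSD1 regions that recurred in YAP livers differed between on and off H3K4me2 by less than its counting error. Of LSD1 regions on H3K4me2, 34.5% overlapped an LSD1 region of the YAP list, and of those off it 32.0%, a difference of 2.42 points (-2.98 to 7.6). The position in H3K4me2 went with a wider range: 28.5% of LSD1 regions wholly inside recurred (24.1% to 33.2%), 35.7% of those crossing 1 edge, 38.5% of the bridging ones and 46.2% of those past both edges (36.3% to 56.3%). Median LSD1 scores of these classes, in the same order, were 716, 755, 736 and 802. The part of score in recurrence was not tested. WT H3K4me1, the other substrate mark, overlapped 8 LSD1 regions on H3K4me2 (0.737%) and 3 off it (0.723%). Against the higher 50% of H3K4me2 regions by signal, the difference, on minus off, was -1.06 points (-2.39 to -0.131). The deposited H3K4me1 list was short, and low overlap with it need not mean low H3K4me1.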

How the data were processed

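Wild-type LSD1, H3K4me2 and H3K4me1 lists and the YAP LSD1 list were used. The submitters' processing notes name mm10 as the build and list deepTools 3.3.0, bedtools 2.26.0, Picard 1.126, SAMtools 1.7, BWA and Trimmomatic 0.39. Neither peak caller nor threshold, nor how inputs entered, is given in the sources used here. A single list stands for both replicates of an antibody, per the labels. The LSD1 score and the signal were deposited by the authors without a definition, and were used only to rank or filter regions within a list. In the H3K4me2 list the deposited score equalled 10 times the deposited −log10 p-value without decimals in all 54219 regions, and the summit is the deposited offset from the region's start. LSD1 entries all had a width of 396 bp and scores of 540 to 1000, so distances below that width are coarse.

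LSD1 entries were merged, which left 1500 of 1718. Gene boundaries, start sites and promoters came from RefSeq (GRCm38.p6). Strand was known for 79.9% of genes, so gene counts used both boundaries. Backgrounds are shares of bases or, for positions within a region, even placement of each centre along its own region. Shares have Wilson intervals, and differences have intervals by Newcombe's method. Scripts ran in Python 3.11.15 with scipy 1.17.1, numpy 2.4.6, pandas 2.3.3 and matplotlib 3.10.9. Overlaps on simulated regions were checked against bedtools 2.31.1. The members and lists were chosen with earlier results of these data known. Named genes were the 12 highest by LSD1 score and then signal on H3K4me2 at gene ends, 6 likewise off it, those at the 5 widest H3K4me2 regions with and without LSD1 and at the 5 with most LSD1, list genes with both, and 9 preset genes; predicted genes were passed over, and some genes at the widest regions are not reported here. Alternatives changed the overlap, merging, gap joining, window of a gene end, chromosomes and the 50% of regions kept.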

Additional observations from a re-analysis of the deposited data

How the results depend on the processing

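Of 92 alternative values, 66 stayed within the counting interval of the reported value or within 1.5 times of a reported count, 25 moved further, and the score difference turned its sign. Requiring at least 50% of an LSD1 region under H3K4me2 gave 60.3% of LSD1 on H3K4me2, 1.88% of H3K4me2 with LSD1, a width ratio of 2.28, 41.6% of LSD1 wholly inside, 46.8% of off regions within 1 kb and a gene-end difference of 36.4 points. Counting H3K4me2 within 1 kb gave 78.9%, 3.87%, a width ratio of 1.69 and 31.8% wholly inside. The higher-scoring 50% of LSD1 regions gave 76.4% on H3K4me2, 1.20% of H3K4me2 with LSD1, 31.1% wholly inside, 344 genes and 13 list genes with both, an H3K4me1 difference of 1.05 points (-1.15 to 2.27) against 0.0144, and, chosen by the score itself, a score difference of -17 (-61.7 to 17.4) against 45. Differences near 0 turned sign elsewhere: the YAP list difference to -2.66 with at least 50% covered, and the H3K4me1 difference to -0.0400 unmerged, -0.00517 with H3K4me2 joined and -1.06 (-2.39 to -0.131) with the higher 50% of H3K4me2 regions. The higher 50% of H3K4me2 regions by signal gave 61.4%, 3.77%, a width ratio of 1.18, 39.1% wholly inside, 16.2% of off regions within 1 kb and a gene-end difference of 49.04 points. Joining H3K4me2 regions within 1 kb gave 4.30% with LSD1, a width ratio of 2.26 and 77.3% wholly inside. Fewer or longer regions shift these values by construction; other causes were not tested. The split of edge distance by gene position, even placement and the tRNA genes were added after seeing the data. No paired analysis was possible because each list stands for both replicates, and for the same reason no replicate could be left out. Read depth is unknown, so regions missing from a list may be below its threshold.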

Other observations

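LSD1 on H3K4me2 was also found at tRNA genes, a group chosen after its values were seen and therefore given as a description. RNA polymerase III transcribes these short genes, which occur in clusters of near-identical copies, so neighbouring genes share regions and reads from copies may not be told apart. LSD1 overlapped 34 of 408 tRNA genes through 31 LSD1 regions, all of them on H3K4me2, and 11 of the 31 were on chromosome 13. The highest signal of the whole LSD1 list, 74.2, lay over the leucine tRNA genes n-TLaag7 and n-TLaag5 (LSD1 at chr13:21169947-21170342), wholly inside an H3K4me2 region of 4206 bp. Next came n-TVtac1 on chromosome 19 (57.4) and n-TLtag3 on chromosome 11 (46.9). Of the 31 regions, 20 were wholly inside H3K4me2, 6 crossed 1 edge, 4 bridged regions and 1 reached past both edges. Of H3K4me2 regions over a tRNA gene, 30 of 123 had LSD1 (24.4%), against 1196 of 54096 other H3K4me2 regions (2.21%). Without chromosome 13 the shares were 23.3% and 2.22%, and among H3K4me2 regions between protein-coding genes they were 23.5% and 2.16%. The tRNA-gene regions were wide, with a median of 1559 bp, and the part of width in their share was not tested. Of the 226 LSD1 regions on H3K4me2 between protein-coding genes, 25 (11.1%) overlapped a tRNA gene.

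LSD1 lay within 1 kb of 8 of 1005 microRNA hairpins (Mir1981, Mir339, Mir6386, Mir6715, Mir7009, Mir7238, Mir760 and Mir8114), in each case on H3K4me2. LSD1 on H3K4me2 lay at an end of 2.93% of protein-coding genes, but a gene was searched around both of its boundaries and a hairpin around its short span only. The 2 shares are therefore not comparable, and the hairpin count is given as a description.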
